A study of Mus musculus with 4 samples.

Results

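B lymphocytes of the small lymphoid aggregates of the mouse colon, the solitary isolated lymphoid tissues (SILT), were selected on the UMI counts (unique molecular identifiers, 1 per captured transcript) of 9 genes in droplet single-cell RNA sequencing libraries of 3' ends. A cell was counted as a B cell if it held at least 2 UMIs of Cd79a and at least 1 of Ms4a1, no UMI of the T cell gene Cd3e or of Il22ra2, at most 1 of the macrophage gene Csf1r and at most 4 over the endothelial genes Kdr, Flt1, Plvap and Cdh5. The rule found 83 cells in Csf2-/- SILT and 500 in wild-type SILT, 583 of 10092 SILT cells and of 16557 cells in all 4 libraries of the series. The same rule found 3 of 1974 cells in Csf2-/- colon lamina propria and 2 of 4491 in wild-type lamina propria, so the lamina propria was not analysed further. The mutant mice were Csf2-/-:CX3CR1-GFP/+:CCR2-RFP/+ and the wild-type mice Csf2+/+:CX3CR1-GFP/+:CCR2-RFP/+, so that both carried the GFP and RFP reporter alleles and differed by label in Csf2, which encodes the growth factor CSF2 (GM-CSF). All were at steady state, and all cells had passed a magnetic selection for CD11b, which is encoded by Itgam. Age and sex are not given in the sources used here. The design text names 5 mice without saying how they were divided or pooled.

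With 1 SILT library of each genotype there was no replicate to measure error from, and neither tests nor p-values are given. Intervals are 95% intervals that cover counting error alone, by the Clopper-Pearson method for shares and from the binomial split of UMIs between libraries for ratios, and they leave out the spread between mice. The B cells held 360165 UMIs in Csf2-/- SILT and 2360383 in wild-type SILT, with medians of 3534 and 3399.5 UMIs per cell. Gene positions are on GRCm38 (mm10), from GENCODE M21. Levels are CPM, the UMIs of a gene summed over the B cells of a library and scaled to a common total. A gene was measured with at least 50 CPM in 1 library and 20 UMIs over both, and called higher or lower if it also differed at least 2-fold with an interval clear of 1. SILT libraries shared 3 barcodes, none of them a B cell in both, and wild-type SILT shared 19 with wild-type lamina propria, 2 of them B cells.

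B cells recognise antigen through a membrane immunoglobulin that signals by way of the CD79A and CD79B chains. Naive cells carry IgM and IgD, and cells that have met antigen can switch to IgG or IgA. In the gut wall B cells gather in follicles through the chemokine receptor CXCR5, supply lymphotoxin to stromal cells and give rise to IgA plasma cells, whose IgA polymers are held together by the J chain. In mice, SILT range from small cryptopatches with few B cells to mature isolated lymphoid follicles.

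The start regions of the genes that set these cells apart are shown because a B cell enhancer element, the octamer ATTTGCAT bound by OCT1 and OCT2 with the coactivator OBF1, can be read from them. RefSeq promoters on GRCm38.p6 were found for 10 of 16 such genes, 1 window for each, covering the 250 bases before the start. The octamer on either strand was in 1 of the 10 and in 526 of 32851 promoters of the whole table (1.6%). The one with it was Vpreb3, a gene of the pre-B cell receptor assembly, 45 bases before the start. A palindrome bound by the B cell factor EBF, CCCNNGGG on either strand, was in 1 of the 10, that of Cd22, and in 3882 promoters of the table (11.8%). By the GENCODE positions, the RefSeq starts used for Vpreb3, Cd22 and Cd79a lay inside the gene. The motif counts thus depend on the start chosen. The 2 windows below are Vpreb3 at chr10:75948050-75948299, plus strand, with the octamer in capitals, and for comparison Cd79a at chr7:24897247-24897496, plus strand, which held neither motif.
Vpreb3: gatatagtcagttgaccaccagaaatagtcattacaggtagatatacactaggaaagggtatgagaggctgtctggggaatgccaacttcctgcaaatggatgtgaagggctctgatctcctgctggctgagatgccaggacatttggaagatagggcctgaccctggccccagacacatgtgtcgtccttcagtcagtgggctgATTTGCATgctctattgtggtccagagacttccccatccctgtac
Cd79a: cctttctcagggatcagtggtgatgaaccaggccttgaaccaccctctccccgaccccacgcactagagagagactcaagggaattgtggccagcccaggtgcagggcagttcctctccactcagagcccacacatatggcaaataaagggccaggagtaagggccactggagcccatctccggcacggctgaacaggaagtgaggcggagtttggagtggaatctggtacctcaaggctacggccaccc

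B cell genes outside the rule were present throughout. Cd79b, the partner chain of CD79A, had a UMI in 91.6% of the Csf2-/- and 97.2% of the wild-type B cells. Fcmr, the IgM Fc receptor gene, was found in 73.5% and 74.4%, and Pax5, the B cell identity factor, in 60.2% and 47.2%, in Csf2-/- and wild-type SILT in turn. Endothelial cells of the same libraries, taken as cells that should lack these genes, held an Fcmr UMI in 0.452% of Csf2-/- and 0.693% of wild-type cells at greater depth. The genes were chosen from the same cells that the rule selects, and are a description of them. By ratio to the mean of T, myeloid and endothelial cells, ranked by the library where it was lower, the leading genes were Cd79a, Ly6d, Ms4a1, Cd79b, Fcmr, Mzb1, Tnfrsf13c (the BAFF receptor gene), Scd1, Vpreb3, H2-Eb2, Fcrla, Pax5, Cr2, Cd22 and Jchain. The place of Jchain rests in Csf2-/- SILT on 1 cell, described below: the other 82 B cells had 187 CPM, against a mean of 406 CPM over T, myeloid and endothelial cells. Of genes with at least 100 CPM, 206 of 1238 (16.6%) were at least 2-fold above the other cells in Csf2-/- SILT and 156 of 1228 (12.7%) in wild-type SILT.

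**Figure D1:**
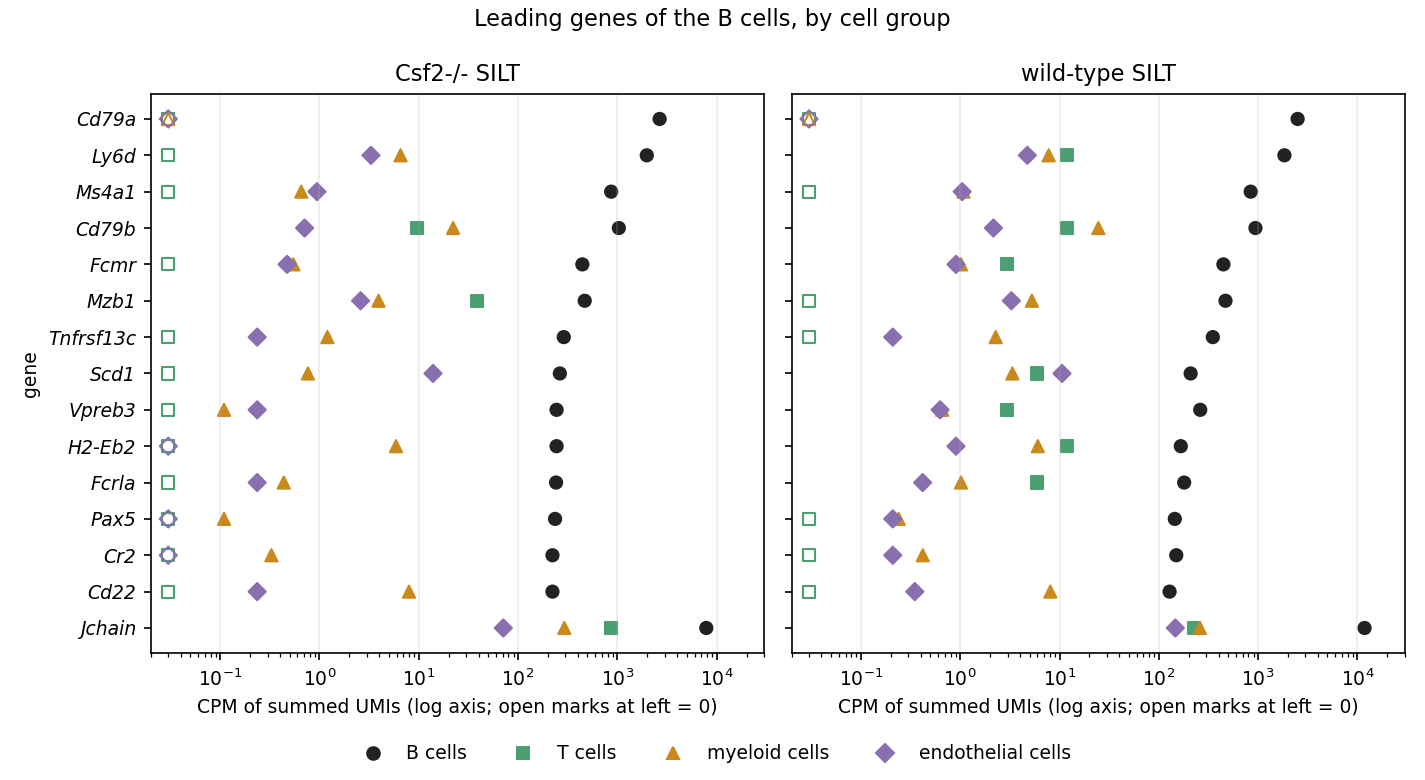
Each point is the level of 1 gene (rows) in CPM on a log axis, summed over B, T, myeloid or endothelial cells of the Csf2-/- (left) or wild-type (right) SILT library, and open marks at the left edge stand for 0 UMIs. The B cells lie to the right of the other cells in all 15 rows of both panels, for Jchain in Csf2-/- SILT through 1 cell (187 CPM without it), with Cd79a at 2665 CPM in Csf2-/- and 2502 CPM in wild-type B cells, and Cd79a is 0 in the other groups because their gates require it.

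Itgam, which encodes the CD11b by which the cells were selected, was low in the B cells. It had 4 UMIs in 4 of 83 Csf2-/- B cells (11.1 CPM) and 45 UMIs in 25 of 500 wild-type B cells (19.1 CPM), against 286 and 246 CPM in the myeloid cells of the same libraries. Macrophage markers summed to 155 CPM in Csf2-/- and 355 CPM in wild-type B cells, with 6 and 7 of 7 markers seen, against 11596 and 13840 CPM in myeloid cells. T cell markers summed to 13.9 CPM (2 of 7 seen) and 24.6 CPM (6 of 7 seen), fibroblast markers to 8.33 CPM (2 of 4 seen) and 189 CPM (4 of 4 seen), epithelial markers to 27.8 CPM (1 of 4 seen) and 80.5 CPM (3 of 4 seen), and dendritic cell markers to 0 CPM (0 of 6 seen) and 47.4 CPM (6 of 6 seen), each in Csf2-/- and then wild-type B cells. Endothelial markers summed to 155 CPM (4 of 5 seen) and 141 CPM (5 of 5 seen), neutrophil markers to 11.1 and 4.24 CPM (3 of 4 seen in both), and NK cell markers to 5.55 CPM (2 of 4 seen) and 4.66 CPM (3 of 4 seen). Monocyte markers summed to 1219 CPM (3 of 5 seen) and 487 CPM (4 of 5 seen), with 209 of 439 Csf2-/- UMIs in 1 cell. Plac8, 1 of the 5, held 166 of the 439 Csf2-/- and 528 of the 1149 wild-type UMIs in B cells of IgM or IgD class, assigned below. Whether the UMIs of this list came from monocytes was not tested. The first 5 lists were thus higher in wild-type and the last 4 in Csf2-/- B cells, and the part of RNA of other cells in the differences below was not tested.

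In Csf2-/- SILT 3.49% of cells (2.79 to 4.31) were B cells, and in wild-type SILT 6.48% (5.94 to 7.05). This share is set by the rule and describes cells that came through the CD11b selection. At the edges of the rule, 4 of 83 Csf2-/- and 7 of 500 wild-type B cells had exactly 2 Cd79a UMIs, and 14 and 90 had exactly 1 Ms4a1 UMI. Just outside, 1 cell of Csf2-/- and 16 of wild-type SILT had 1 Cd79a UMI with Ms4a1 present. A larger group, 38 cells in Csf2-/- and 142 in wild-type SILT, held Cd79a but no Ms4a1 UMI. Of these, 26 (68.4%) and 87 (61.3%) had at least 50 UMIs of Jchain (Jchain is a gene of antibody-secreting cells). The median depth was 19135 UMIs per cell over the 38 and 17642 over the 142. The conditions on the other genes refused 8 Csf2-/- and 98 wild-type cells that met the Cd79a and Ms4a1 minimum, at medians of 10266.5 and 11169.5 UMIs, above those of the cells kept.

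A few cells inside the rule also carried Jchain at that level. There was 1 such Jchain-high cell in Csf2-/- SILT, with 2775 Jchain UMIs, and there were 15 in wild-type SILT, with 166 to 4741. No other cell had more than 7 Jchain UMIs in Csf2-/- or 47 in wild-type SILT. Of the wild-type cells below the minimum of 50, 4 held 10 or more. The Jchain-high cells made up 1.20% and 3% of the B cells, yet held 96.7% of the Igha UMIs and 88.0% of the Igkc UMIs of the Csf2-/- B cells, and 94.7% and 86.6% in wild type. Sdc1, the plasma cell surface marker gene, had UMIs in all 16 of them. A single wild-type cell held 3709 of the 3875 wild-type Ighg1 UMIs, and 7019 of the 8840 wild-type Iglc1 UMIs also lay in 1 cell. Scrublet, a doublet caller, marked none of these 16 cells. It marked only 1 of the 8 Csf2-/- and 16 of the 98 wild-type cells refused for other genes. Whether the Jchain-high cells were single cells was not tested. Because the Jchain-high cells dominate the antibody genes, sums are given below with and without them.

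Free antibody RNA was abundant in both libraries. An Igha UMI was found in 80.1% of Csf2-/- and 91.5% of wild-type endothelial cells, against 77.1% and 91.4% of the B cells, so a single Igha UMI does not set B cells apart. The endothelial cells were deeper, and as CPM Igha was higher in the B cells, as given below. Each B cell other than the Jchain-high ones was therefore assigned a heavy chain class where its UMIs exceeded the 99th percentile of endothelial cells in its own library, which was 7 UMIs in Csf2-/- and 13 in wild-type SILT for Igha, and 1 in both for the summed Ighg genes and for Ighm plus Ighd. Taken from deeper cells, the Igha thresholds are strict for B cells, and IgA cells below them are not counted.

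IgM or IgD alone was the class of 63 of 83 Csf2-/- B cells (75.9%, 65.3 to 84.6) and 413 of 500 wild-type B cells (82.6%, 79.0 to 85.8). IgA alone was assigned to 4 (4.82%, 1.33 to 11.9) and 10 (2%, 0.963 to 3.65), and IgG alone to 7 (8.43%, 3.46 to 16.6) and 16 (3.20%, 1.84 to 5.14). Cells over an IgA or IgG threshold without any Ighm or Ighd UMI, called switched here, were 13 of 83 in Csf2-/- (15.7%, 8.61 to 25.3) and 26 of 500 in wild-type SILT (5.2%, 3.42 to 7.53), with intervals that do not overlap. With the higher of the library thresholds used in both, the shares were 12% (5.93 to 21.0) and 5.2%, and the intervals overlapped. Cells without any Ighm or Ighd UMI, whatever else they held, were 20.5% (12.4 to 30.8) and 7% (4.92 to 9.60). Cells over a threshold with more IgA and IgG than IgM and IgD UMIs were 12% (5.93 to 21.0) and 7.8% (5.61 to 10.5), and these intervals overlapped too. The shares also differed by Xist, the X inactivation transcript. Among cells with a Xist UMI 11 of 49 Csf2-/- cells (22.4%, 11.8 to 36.6) and 4 of 72 wild-type cells (5.56%, 1.53 to 13.6) were switched, against 2 of 34 (5.88%) and 22 of 428 (5.14%) of those without one.

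**Figure D2:**
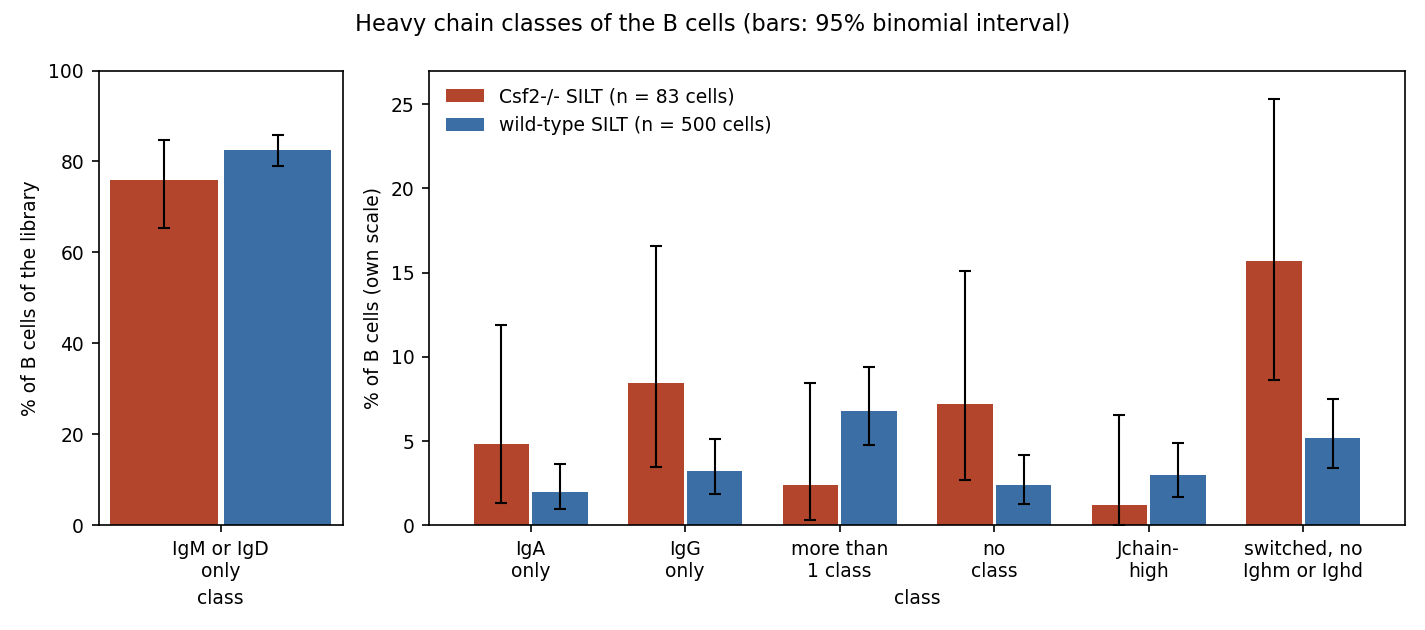
Bars give the percentage of B cells in each heavy chain class in Csf2-/- (red, left of each pair) and wild-type SILT (blue), with 95% binomial intervals. The left panel has its own scale, and its IgM or IgD class holds 75.9% and 82.6% of the cells, while switched cells hold 15.7% and 5.2% at the far right, where they overlap with the IgA and IgG classes.

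Switched cells were compared with IgM or IgD cells of their own library over 40 genes, picked with results of these data known, so their values are a description. Of the 34 that were not heavy chain genes and had a ratio in both libraries, 12 were higher and 16 lower in switched cells of both, and 6 went opposite ways. The interval was clear of 1 in both libraries for 6 higher and 7 lower genes, and for 0 in opposite directions. These counts were not made over all measured genes, so no background share stands beside them. S100a6, a calcium-binding protein gene, had the widest split of the 6, with a ratio of 0.51 (0.20 to 1.14) in Csf2-/- and 2.03 (1.67 to 2.46) in wild-type SILT. Bhlhe41, a transcription factor of B-1 and memory B cells, had 393 CPM in the 13 switched and 38.9 CPM in the 63 IgM or IgD cells of Csf2-/- SILT, 10.1-fold higher (4.61 to 24.4), and 11.7-fold higher (7.38 to 18.7) in wild type, with 280 CPM in the 26 switched and 23.9 CPM in the 413 IgM or IgD cells. Zbtb20, a transcription factor of germinal centre and plasma cells, was 3.32-fold (2.33 to 4.72) and 3.80-fold (2.84 to 5.03) higher. Ccr6, a chemokine receptor gene of memory B cells, was 3.16-fold (1.45 to 6.82) and 2.09-fold (1.32 to 3.19) higher, and Ltb, which encodes lymphotoxin beta, 1.68-fold (1.26 to 2.24) and 1.41-fold (1.18 to 1.67) higher. Fas, a death receptor gene of germinal centre and memory cells, had 5 UMIs in 3 of 13 switched cells and 1 UMI in the 63 others of Csf2-/- SILT, and 20 UMIs in 10 of 26 against 9 UMIs in 9 of 413 cells in wild type. Cd80, a costimulatory ligand and memory marker in mice, was found in 4 of 13 against 1 of 63 cells in Csf2-/- and in 5 of 26 against 3 of 413 in wild-type SILT.

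Among the 7 lower genes were Cr2, Fcer2a, Fcmr, Ccr7 and S1pr1. Cr2, the complement receptor gene, was 11.1-fold lower (2.98 to 93.7) in switched than in IgM or IgD cells of Csf2-/- SILT and 5.66-fold lower in wild type. Fcer2a, which encodes CD23, was 3.62-fold lower (1.47 to 11.6) in Csf2-/- SILT and 3.12-fold lower in wild type. Ccr7 and S1pr1, which guide cells to T cell zones and out of lymphoid tissue, had ratios of 0.34 and 0.33 in Csf2-/- and 0.47 and 0.56 in wild-type SILT. Of general B cell genes, Cd79a and Ms4a1, both in the rule, and H2-Ab1 had ratios of 0.85, 0.97 and 1.15 in Csf2-/- and 1.01, 0.98 and 0.99 in wild type, with intervals that include 1 for all 3 in both libraries. Cd74, another class II presentation gene, was among the 7 lower genes, with ratios of 0.80 (0.74 to 0.86) in Csf2-/- and 0.77 (0.74 to 0.80) in wild-type SILT. Klf2 had a ratio of 0.58 (0.40 to 0.81) in Csf2-/- and 0.95 (0.82 to 1.09) in wild-type SILT, and Cxcr5, the receptor that guides cells to follicles, ratios of 1.32 (0.59 to 2.74) and 1.40 (0.80 to 2.31).

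**Figure D3:**
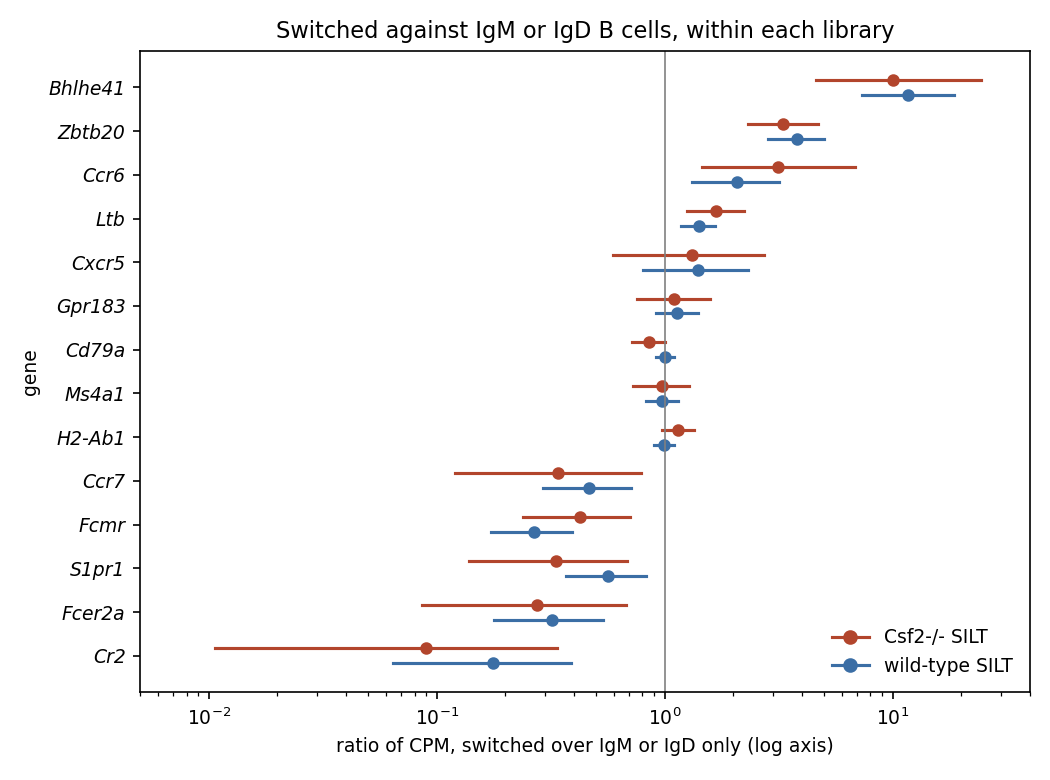
Points give the ratio of CPM in switched over IgM or IgD B cells on a log axis for 14 genes, with 95% intervals, in Csf2-/- (red, upper of each pair) and wild-type SILT (blue). Bhlhe41, Zbtb20, Ccr6 and Ltb lie right of 1 and Ccr7, Fcmr, S1pr1, Fcer2a and Cr2 left of it in both libraries.

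Of the 10 genes of the germinal centre list 1 was measured, Basp1, at 33.3 and 52.1 CPM with a ratio of 0.64 (0.32 to 1.16). Cells with at least 2 UMIs over 8 mitotic genes were 0 of 83 in Csf2-/- and 16 of 500 (3.20%, 1.84 to 5.14) in wild-type SILT. The 0 allows a share of up to 3.61% by 3 counts and 4.35% by the exact interval, so a difference was not detectable at this depth. Endothelial cells met the same minimum in 1.81% of Csf2-/- and 1.71% of wild-type cells. The 16 wild-type B cells had a median of 11372.5 UMIs, against 3399.5 over all wild-type B cells, and whether they were dividing was not tested. Light chains were also read per cell. Lambda UMIs exceeded kappa UMIs in 11 of 83 Csf2-/- (13.3%, 6.81 to 22.5) and 42 of 500 wild-type B cells (8.40%, 6.12 to 11.2).

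The comparison of Csf2-/- with wild-type B cells asks what differs in these lymphocytes where CSF2 is missing. The deletion could not be checked in them, since Csf2 (chr11:54247271-54249667, minus strand) had 0 UMIs in Csf2-/- and 1 UMI in wild-type B cells. Of 2844 measured genes, 102 were called higher (3.59%) and 113 lower (3.97%) in Csf2-/- B cells, and the median log2 ratio was 0.018. Without the Jchain-high cells 144 of 3097 genes were called higher (4.65%) and 103 lower (3.33%), of which 93 and 78 were also called with them. Endothelial cells of the same libraries, with more UMIs, had 26 of 3913 genes higher (0.664%) and 18 lower (0.46%). Myeloid cells had 24 of 3131 higher and 34 lower. In the T cells, which were only 16 and 54 cells, 160 of 3088 genes were higher and 162 lower, so the B cell counts are not the largest of these groups. Within cells of IgM or IgD alone, 175 of 3111 measured genes were called higher and 111 lower, 79 and 61 of them also called over all B cells.

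The 10 highest named genes stood on few UMIs, 20 to 34 in Csf2-/- B cells. Nr4a2, an orphan nuclear receptor gene induced by antigen receptor signals, had 24 UMIs in 8 of 83 Csf2-/- cells (66.6 CPM) and 26 UMIs in 17 of 500 wild-type cells (11.0 CPM), 6.05-fold higher (3.33 to 11.0). One Csf2-/- cell held 10 of the 24, and among cells without a Xist UMI the log2 ratio was 1.31, against 2.60 over all B cells. Vps18, of the endosomal tethering complexes, was 4.10-fold (2.22 to 7.38) and Prkd2, a protein kinase D gene, 3.79-fold (2.39 to 5.93) higher, and Prkd2 had a UMI in 33.7% of Csf2-/- and 10.0% of wild-type cells. The log2 ratio of Prkd2 was 3.26 (1.86 to 4.99) among cells with a Xist UMI and 1.004 (-0.51 to 2.22) among those without. Slc20a1, a phosphate transporter gene, followed at 3.35-fold (1.91 to 5.73), then Sertad2 and Chkb (choline kinase beta), both at 3.28-fold, Mau2 (cohesin loading) at 3.14-fold, Trim8 at 3.01-fold, Trps1 (a GATA-type repressor) at 2.94-fold and Snx8 (a sorting nexin) at 2.93-fold. All 10 were also higher in Csf2-/- endothelial cells, by 1.28-fold for Sertad2 to 2.44-fold for Snx8, and all 10 in myeloid cells, by 1.10-fold for Snx8 to 2.24-fold for Nr4a2.

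**Figure D4:**
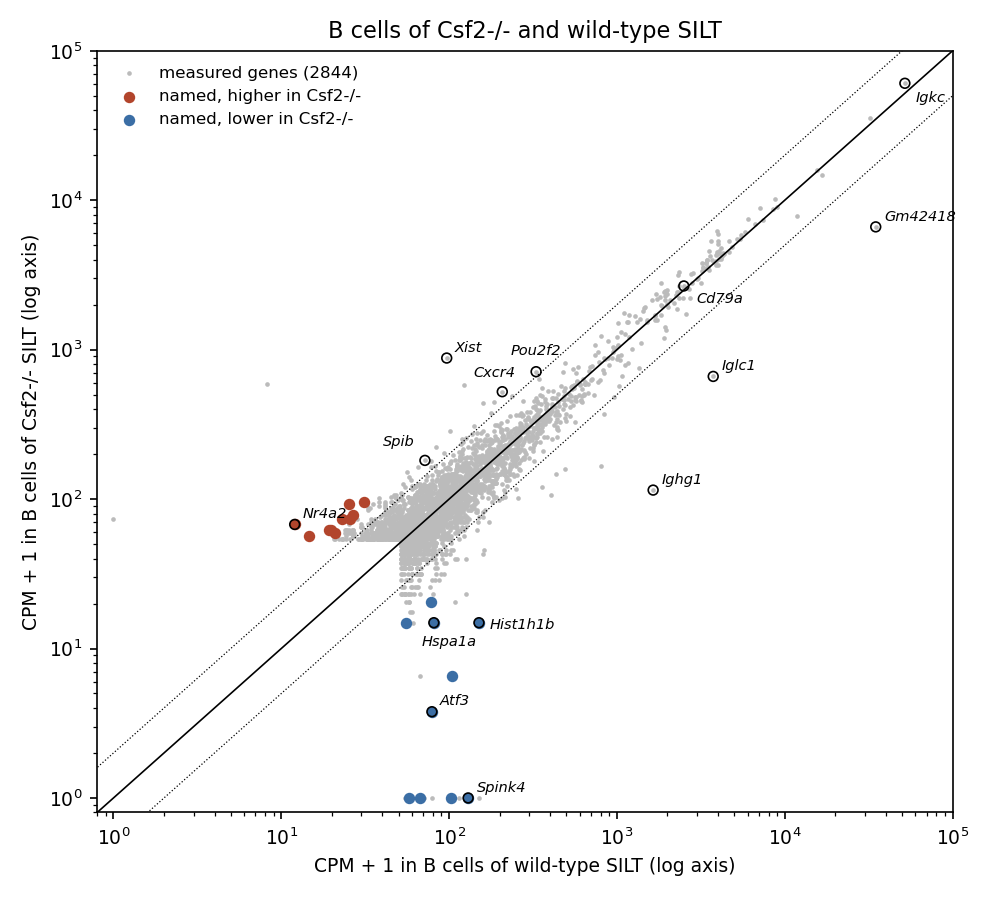
Each grey point is 1 of 2844 measured genes, with its level in Csf2-/- B cells (vertical) against wild-type B cells (horizontal) as CPM plus 1 on log axes. Solid and dotted lines mark equality and 2-fold differences, red and blue points the 10 named genes higher and lower in Csf2-/-, and rings the labelled genes, among them Cxcr4 at 522 CPM in Csf2-/- and 206 CPM in wild type.

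Of 22 measured genes of the antigen receptor and its signalling, of 23 listed, 0 were called in either direction, a count near the 3.59% and 3.97% of all genes, 17 had ratios above 1, and the median log2 ratio was 0.34 (0.068 to 0.50, the binomial interval of the median over genes), beside 0.018 over all genes. The same list had a median of 0.23 over 15 measured genes in myeloid cells and of -0.25 over 2 in endothelial cells. The B cell interval included 0 with at least 3 Cd79a and 2 Ms4a1 UMIs, with TMM factors and with a mean over cells. It also did after thinning, and with the highest cell of each gene left out. It stayed above 0 with Scrublet doublets left out and with no CPM floor. Whether the shift is particular to B cells was not tested. Cd22, an inhibitory sialic acid receptor gene, was at 222 CPM in Csf2-/- and 128 CPM in wild-type B cells, 1.73-fold higher (1.34 to 2.22). Cd79b was at 1036 and 941 CPM with a ratio of 1.10 (0.98 to 1.23). The kinase gene Btk had the lowest ratio of the list, 0.67 (0.48 to 0.92).

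Of 19 measured B cell transcription factors of 20 listed, 3 were called higher and 0 lower, where 3.59% and 3.97% of all measured genes were, and the median log2 ratio was 0.48 (0.13 to 0.81). Spib (chr7:44525993-44532071, minus strand), an ETS factor of B cells and plasmacytoid dendritic cells, was at 180 CPM in Csf2-/- and 70.8 CPM in wild-type B cells, 2.55-fold higher (1.88 to 3.42), and had a UMI in 48.2% and 26.6% of cells. Bcl11a, a zinc finger factor needed for B cell development, was at 447 and 183 CPM, 2.44-fold higher (2.03 to 2.93). Pou2f2, which encodes OCT2, one of the factors of the octamer shown above, was at 711 and 329 CPM, 2.16-fold higher (1.87 to 2.49), but was 2.48-fold higher in endothelial and 2.18-fold higher in myeloid cells too. Bcl11a was 2.29-fold higher in myeloid cells, and Spib 1.32-fold. Pou2af1, which encodes the coactivator OBF1, had a ratio of 1.86 (1.38 to 2.48), and 2.31 without the Jchain-high cells. Pax5 and Ebf1, the factors that set B cell identity, had ratios of 1.63 (1.27 to 2.07) and 1.48 (1.35 to 1.63). Klf2, which keeps cells quiescent and recirculating, had the lowest ratio, 0.70 (0.62 to 0.79). Within IgM or IgD cells Spib, Bcl11a and Pou2f2 were 2.23-fold, 2.30-fold and 2.01-fold higher.

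Of the 10 follicular B cell genes 0 were called in either direction, a count near the 3.59% and 3.97% of all measured genes, with a median log2 ratio of -0.031 (-0.37 to 0.25). Ighd was at 414 CPM in Csf2-/- and 429 CPM in wild type (ratio 0.96, 0.81 to 1.15), Fcmr at 444 and 447 CPM (ratio 0.99, 0.84 to 1.17) and Fcer2a at 183 and 209 CPM (ratio 0.88, 0.67 to 1.13). The largest departures of the list were Klf2 and Ccr7, at 192 and 248 CPM (ratio 0.77, 0.59 to 0.99). The 10 class II presentation genes also had 0 calls, again near the share of all genes, with a median of 0.11 (-0.041 to 0.51). Cd74, the invariant chain gene, had a ratio of 0.89 (0.86 to 0.91) and H2-Ab1, a class II beta chain gene, one of 1.04 (0.97 to 1.12). Ciita, the class II transactivator gene, was at 250 and 144 CPM, 1.73-fold higher (1.36 to 2.19).

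Among 12 measured migration receptors of 17 listed, Cxcr4 (chr1:128588199-128592293, minus strand), the receptor of CXCL12, was the 1 called, higher, where 3.59% of all measured genes were. It was at 522 CPM in Csf2-/- and 206 CPM in wild-type B cells, 2.53-fold higher (2.13 to 3.0), with UMIs in 63 of 83 and 283 of 500 cells. After each cell was thinned to 1000 UMIs, 46.3% of 80 Csf2-/- and 20.8% of 500 wild-type cells held one. The gene was 2.84-fold higher in myeloid cells and 1.87-fold higher in endothelial cells as well, and 2.49-fold higher within IgM or IgD B cells. Cxcr5, the follicle receptor, had 40 UMIs in Csf2-/- and 161 in wild type (111 and 68.2 CPM, ratio 1.63, 1.12 to 2.31). Gpr183, an oxysterol receptor gene that positions B cells, was at 489 and 483 CPM with a ratio of 1.01 (0.86 to 1.19), and Ccr6 at 88.8 and 72.0 CPM (ratio 1.23, 0.82 to 1.81). Integrin Itgb7, a partner in gut homing, had a ratio of 1.69 (1.13 to 2.45). The list median was 0.21 (-0.0016 to 0.75), and without the Jchain-high cells Itgal was called higher too (ratio 2.098).

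The lymphotoxin, TNF and BAFF axis and the survival list had 0 calls, which with so few measured genes is near the share of all genes called. Ltb was at 697 CPM in Csf2-/- and 573 CPM in wild-type B cells (ratio 1.22, 1.06 to 1.39), and had a ratio of 0.96 (0.80 to 1.14) within IgM or IgD cells. Tnfrsf13c was at 289 and 350 CPM (ratio 0.83, 0.67 to 1.01) and Tnfrsf13b, which encodes the receptor TACI, at 183 and 196 CPM (ratio 0.94, 0.71 to 1.21). The axis had 4 measured genes of 11 and the survival list 7 of 11, with Mcl1, an antiapoptotic gene, at 361 and 521 CPM (ratio 0.69, 0.57 to 0.83). Of 12 measured activation genes of 14 listed 1 was called higher, where 3.59% of all measured genes were. It was Nfkbid, which encodes a nuclear inhibitor of NF-kB, at 203 and 92.4 CPM, 2.19-fold higher (1.66 to 2.87), and 1.85-fold higher within IgM or IgD cells. Of 8 B-1 cell genes 2 were measured. Bhlhe41, at 106 and 51.3 CPM, was 2.06-fold higher (1.39 to 2.99), with a ratio of 1.62 (0.69 to 3.44) within IgM or IgD cells, where it was below the floor. Ahnak, which encodes a large scaffold protein, was called lower, at 103 and 214 CPM, and was not called without the Jchain-high cells (ratio 0.61).

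Cd180, a Toll-like receptor relative of B cells, was at 253 and 163 CPM (ratio 1.55, 1.22 to 1.96), and the 3 measured genes of the Toll-like list, the other two being Ly86 and Unc93b1, had 0 calls. None of the 6 genes of CSF2 and its receptor family was measured. Csf2ra had 5 UMIs in Csf2-/- and 39 in wild-type B cells, and Csf2rb, whose reads can be shared with Csf2rb2, had 4 and 24. The myeloid cells held 179 and 117 CPM of Csf2ra, against 13.9 and 16.5 CPM in the B cells. Of 11 purinergic genes 3 were measured and 0 called, P2rx4, an ATP-gated channel gene, having the highest ratio, 1.68 (1.11 to 2.46). No call was made among the measured genes of the interferon, plasma cell, marginal zone, regulatory, and fatty acid and TGF-beta lists (4 of 14, 5 of 10, 2 of 6, 3 of 9 and 4 of 8). With so few measured genes, the 0 calls of the lists in this paragraph are near the 3.59% and 3.97% of all measured genes. Without the Jchain-high cells 1 interferon gene, Bst2, was called lower (ratio 0.42).

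Of 19 measured genes of the dissociation and heat-shock list 0 were called higher and 3 lower, where 3.59% and 3.97% of all measured genes were, with a median log2 ratio of -0.37 (-0.78 to 0.12), against 0.15 in endothelial cells. Atf3, a stress-induced transcription factor gene, had 1 UMI in Csf2-/- and 184 UMIs in 47 of 500 wild-type cells, 34 of them in 1 cell (ratio 0.036, 0.00090 to 0.20), with a ratio of 0.57 in endothelial cells. Hspa1a, an HSP70 gene, had 5 UMIs in 3 cells and 189 UMIs in 79 cells, 5.77-fold lower (2.43 to 18.0), and its copy Hspa1b, with which reads can be shared, was at 74.97 and 157 CPM (ratio 0.48, 0.31 to 0.71). Fos and Jun, immediate early genes, had ratios of 0.56 (0.49 to 0.64) and 0.58 (0.48 to 0.70). Myeloid cells had Hspa1a at a ratio of 0.84 and Atf3 at 0.82. Among cells without a Xist UMI the list median was 0.052, and the log2 ratio was -0.89 for Hspa1a, against -2.53 over all B cells, and -2.13 for Atf3, against -4.81.

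Some of the other genes called lower were more abundant in other cells than in the B cells. Spink4 and Agr2, goblet cell genes, Dcn, a fibroblast gene, and Retnla, a macrophage gene, had 0 UMIs in Csf2-/- B cells, against 304, 134, 240 and 157 in wild type. By a floor of 3 counts over the Csf2-/- cells they were at least 15.5-fold, 6.82-fold, 12.2-fold and 7.99-fold lower. In the wild-type library these UMIs lay in 45, 28, 23 and 17 B cells, and the other cells of that library held 459, 274, 481 and 223 CPM of them, above the 129, 56.8, 102 and 66.5 CPM of its B cells, while the other Csf2-/- cells held 0.0488, 0.0488, 160 and 20.3 CPM. Single wild-type cells held 118 of the Spink4, 148 of the Dcn and 139 of the Retnla UMIs. In all, 20 of the 113 genes called lower were over 5 times higher in the other cells of wild-type SILT, 11 were immunoglobulin segments and 5 histone genes. Ccl5, a chemokine gene of T and NK cells, had 2 UMIs in Csf2-/- and 243 in wild type, 219 of these in 1 cell, and a log2 ratio of -0.89 without the Jchain-high cells, against -4.21 with them. S100a4 and Pitpnb, a calcium-binding and a lipid transfer protein gene, were 3.97-fold (1.89 to 10.0) and 3.94-fold (1.64 to 12.3) lower. Hist1h1b, a histone H1 gene of S phase, had 5 UMIs in Csf2-/- and 353 UMIs in 79 wild-type cells, 136 of them in 1 cell, 10.8-fold lower (4.57 to 33.4). It was also lower in Csf2-/- than in wild-type myeloid cells (8.30 against 60.1 CPM, ratio 0.14), with a ratio of 1.15 in endothelial cells. Stmn1, expressed in dividing cells, was the 1 gene called in the cell cycle list of 2 measured genes, lower, with 8 and 157 UMIs, where 3.97% of all measured genes were called lower. Within IgM or IgD cells Stmn1 had 8 and 27 UMIs and a ratio above 1 (1.93, 0.76 to 4.36).

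Antibody constant region levels depended on the Jchain-high cells. Over all B cells Ighg1 was at 114 CPM in Csf2-/- and 1642 CPM in wild type and Iglc1 at 661 and 3745 CPM, both called lower. Without the Jchain-high cells Ighg1 was at 127 and 77.3 CPM and Iglc1 at 667 and 732 CPM, and neither was called lower. Igha was at 15926 and 15648 CPM over all B cells, and at 603 and 1003 CPM without the Jchain-high cells, above the 247 and 509 CPM of endothelial cells. Ighm was at 1927 and 1473 CPM (ratio 1.31, 1.20 to 1.42), and Igkc at 60578 and 51947 CPM over all B cells, but at 8303 and 8437 CPM without the Jchain-high cells, where its order turns. The antibody segment genes overlap in sequence, and their split by the authors' counting is uncertain.

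The B cells of the 2 libraries also differed in Xist. An Xist UMI was found in 49 of 83 Csf2-/- B cells (59.0%, 47.7 to 69.7) and 72 of 500 wild-type B cells (14.4%, 11.4 to 17.8). Endothelial cells had one in 54.3% of Csf2-/- and 55.6% of wild-type cells, myeloid cells in 54.9% and 41.8%, and T cells in 50% and 31.5%. After thinning to 1000 UMIs the B cells had Xist in 43.8% and 6.6%, and endothelial cells in 32.6% and 21.3%, and the wild-type B cells were lowest at that matched depth too. Ddx3y, a Y-linked gene, was found in 16.9% (9.54 to 26.7) of Csf2-/- and 29.4% (25.4 to 33.6) of wild-type B cells. Cells with Xist and cells with Ddx3y were thus found in each library, in shares that differed between the genotypes. Over all B cells, genotype and that mix cannot be told apart. Within cells with a Xist UMI the log2 ratios of Cxcr4, Bcl11a and Spib were 1.82, 1.69 and 2.12, and within cells without one 1.33, 1.33 and 0.92. Among B cells without a Xist UMI, 21 of 34 Csf2-/- and 290 of 428 wild-type cells had no Ddx3y UMI either. Both genes had UMIs in 1 Csf2-/- and 9 wild-type B cells. A division by Xist UMIs is thus not a division by sex.

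**Figure D5:**
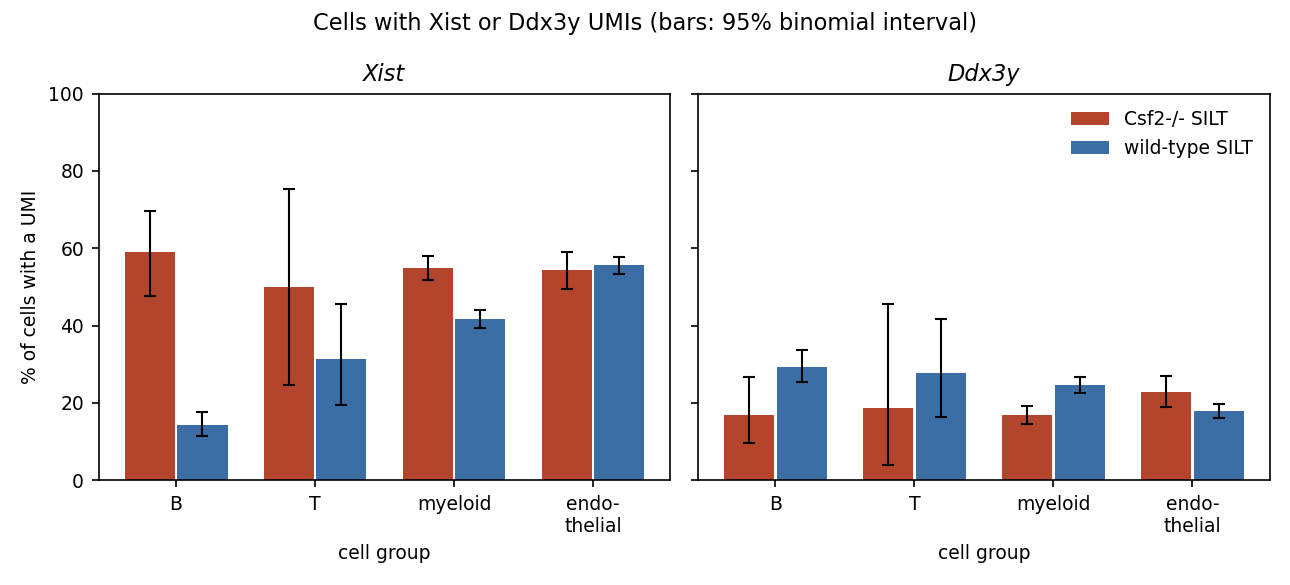
Bars give the percentage of cells with a UMI of Xist (left) or Ddx3y (right) in each cell group of Csf2-/- (red, left of each pair) and wild-type SILT (blue), with 95% binomial intervals. For Xist the wild-type B cells, at 14.4%, lie below the Csf2-/- B cells, at 59.0%, and below wild-type endothelial cells, at 55.6%.

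A difference of the whole libraries also ran through these cells. Gm42418, a transcript that overlaps a ribosomal RNA repeat, was at 6628 CPM in Csf2-/- and 34828 CPM in wild-type B cells, 5.26-fold lower (5.05 to 5.48), and had a ratio of 0.24 in endothelial and 0.21 in myeloid cells. Kdm6b, a histone demethylase gene, was 2.67-fold higher in Csf2-/- B cells, and 2.20-fold and 2.47-fold higher in endothelial and myeloid cells. For genes with such ratios in all 3 cell groups, a difference of the B cells and one of the library cannot be told apart. Zbtb20, at 441 and 157 CPM in B cells, 2.81-fold higher (2.32 to 3.39), had ratios of 1.21 in endothelial and 1.07 in myeloid cells, and was 2.53-fold higher within IgM or IgD B cells.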

How the data were processed

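Cells were CD11b-selected single cells of colon SILT and lamina propria, 1 library per genotype and tissue. The deposited matrices hold raw UMI counts per gene and barcode for 32285 features; per the submitters' processing notes Cell Ranger 2.1.1 and mm10 were used, while the file headers name Cell Ranger 6.0.0, and the labels' protocol names 3' chemistry version 2. From these deposited counts, barcodes were kept where 200 or more genes were detected and mitochondrial genes held no more than 10% of UMIs, and the B cell rule was applied. The members, gene lists and comparisons were chosen with earlier results of these data known. Counts were summed over the B cells of a library and scaled to CPM, and ratios carry exact conditional binomial intervals. Summed B cell depth was 360165 UMIs in Csf2-/- and 2360383 in wild-type SILT, so 3 counts, the floor for a count of 0, correspond to 8.33 and 1.27 CPM. Reference groups were T cells (16 in Csf2-/- and 54 in wild-type SILT), myeloid cells (954 and 1726) and endothelial cells (442 and 1875), gated on Cd3e, Csf1r and the endothelial genes. Named genes were the 10 highest and 10 lowest called ratios with a UMI in at least 5 B cells of the higher library, leaving out mitochondrial, ribosomal, antibody and T cell receptor segment, haemoglobin, sex-linked and unnamed genes and those over 5 times higher in other cells, plus members that illustrate 22 gene lists and a fixed set of antibody, CSF2 and migration genes; Zbtb20, Kdm6b, Gm42418 and Xist were added after their values were seen. Doublets were kept; Scrublet marked 11 of 2378 Csf2-/- cells (0.463%) and 117 of 7714 wild-type cells (1.52%), 1 of them a B cell. Calculations used Python 3.11.15 with numpy 2.4.6, scipy 1.17.1, pandas 2.3.3 and scanpy 1.11.5, and edgeR 4.0.16 in R 4.3.3 for TMM factors as an alternative; scripts were tested on simulated data. Other alternatives changed the gate, the cell filters, depth (thinning to 1000 UMIs), the floor and the scaling. A few genes of the lists are not reported here.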

Additional observations from a re-analysis of the deposited data

How the results depend on the processing

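No replicate could be left out, since each genotype was 1 library. No paired analysis was possible because the groups share no more than 1 library each and no result comes from a test. Of 443 alternative values of named gene ratios 402 stayed within the counting interval of the value over all B cells and 40 moved outside it. Some of the 40 also changed sign, for Cd79b, Fcmr and Ighd, whose intervals over all B cells include a ratio of 1. The remaining 1, for Ltb, moved outside and changed sign from an interval clear of 1. With those inside the interval counted too, the sign differed in 14, over 5 genes with small ratios (Cd79b, Fcmr, Ighd, Ltb and Ccr6, at most 0.30 on the log2 scale over all B cells), with Cd79b at -0.46 after thinning; for list medians 248 of 266 stayed and 18 moved, and for shares of B cells by class or gene 146 of 192 stayed and 46 moved. The B cell share became 2.73% in Csf2-/- and 5.28% in wild-type SILT with at least 3 Cd79a and 2 Ms4a1 UMIs, 1.77% and 3.87% with the rule applied after thinning to 1000 UMIs, and 7.14% in wild type among cells of at least 1000 UMIs. The counts of 102 genes higher and 113 lower became 34 and 37 at a floor of 100 CPM and 40 UMIs, 289 and 373 with no CPM floor, and 58 and 170 with the highest cell of each gene left out. The higher count became 251 with CPM computed without antibody, mitochondrial and ribosomal genes, and 217 with a mean over cells. The remaining alternatives were chosen after seeing the data: 287 genes were lower among cells with a Xist UMI, 341 higher among cells without one, and 175 higher among IgM or IgD cells. The class II median log2 ratio was -0.13 among cells with a Xist UMI and 0.53 among those without, where the follicular median was 0.41. The log2 ratio of Ltb was -0.060 within IgM or IgD cells, against 0.28 over all B cells. Ighd was found in 25.3% of Csf2-/- and 33.6% of wild-type B cells at 3 UMIs or more and in 37.5% and 38.6% after thinning. Switched cells were 5.88% in Csf2-/- and 5.14% in wild type among cells without a Xist UMI, and 12% and 7.8% where IgA and IgG UMIs exceeded IgM and IgD UMIs. The causes of these changes were not tested. With 83 Csf2-/- B cells, depth limits every share and low gene in that library.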
